A study of Arabidopsis thaliana with 34 samples.

Results

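The leaves described here are those of the Arabidopsis thaliana accession Tenela (Te) after 1 d at -3 °C, set against cold acclimated Te leaves. The arrays were chosen by their titles, 3 for Te at 1 d and 3 for Te cold acclimated, which makes 6 of the 34 arrays of the series. All 22746 probe sets that are not controls were compared. The series followed leaf transcripts of Columbia-0 (Col), Rschew (Rsch) and Te with time during sub-zero acclimation. Every plant, controls included, was grown for 42 days and then acclimated at 4 °C for 14 days in a 16-h day at 90 µmol m-2 s-1. The cold acclimated leaves were taken from such plants directly. The -3 °C leaves had been cut off, stood in tubes with water in a dark oil bath, and stayed supercooled without ice; the times were 8 h, then 1 d, then 3 d. Detachment and darkness therefore came with the -3 °C treatment in every comparison against cold acclimated leaves, and temperature cannot be told apart from them. Each array held RNA from 3 leaves of 3 plants, pooled, and the study describes its 3 replicates as independent and biological. The probes of the ATH1 array follow the sequence of Columbia-0, so a Te transcript whose sequence differs can read low.

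Plants that have acclimated in the cold gain further freezing tolerance when they then meet temperatures just below zero. Known parts of the cold response are the CBF transcription factors, the COR and LEA proteins that protect membranes and chloroplasts, sugars and other solutes, and remodelling of the cell wall. Leaves kept in the dark also draw on stored carbohydrate and protein and lower the transcripts of photosynthesis.

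The labelled tissue was checked against marker genes. Of 21 leaf mesophyll markers 6 were measured by a probe set that names 1 gene (RCA, PSBY, PSAN, LHCB4.1, LHCB4.2 and PRK), and all 6 lay above 5.32 log2, the 40th percentile of all values, on all 6 arrays. Their mean level ran from 10.97 to 11.10 log2 on the cold acclimated arrays and from 10.10 to 10.44 at 1 d. TRY of trichomes, PYK10 of roots and CLV3 of the shoot meristem each lay below 5.32 on all 6 arrays. SWEET11 of the phloem lay between 10.23 and 10.99. No guard cell or flower marker was named here. In whole leaves, fewer cells of a type and less RNA per cell cannot be told apart.

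The array labelled Te 1 d replicate 1 stood apart from replicates 2 and 3 before any comparison was made. A time score was built from 1062 probe sets that differed between 3 d and 1 d in Col and Rsch, with no Te array used, so that the mean of the Col and Rsch 1 d arrays scores 0 and that of their 3 d arrays scores 1. It sets 1 d against 3 d only and does not order earlier times. The Te cold acclimated arrays scored 0.41, 0.29 and 0.35, and the Te 8 h arrays 0.14, -0.02 and -0.17. Te 1 d replicates 2 and 3 scored 0.02 and 0.08. The array labelled Te 1 d replicate 1 scored 1.04, and the array labelled Te 3 d replicate 1 scored 0.14 where the other 3 d replicates scored 0.98 and 0.96. Over all probe sets the array labelled Te 1 d replicate 1 lay nearer to the mean of Te 3 d replicates 2 and 3 (root mean square difference 0.378 log2) than to that of Te 1 d replicates 2 and 3 (0.494). It was also 1 of 9 arrays with a low signal of bioC, a transcript added at hybridization, at 6.99 log2 against 8.26 and 8.30. Its actin 3' minus 5' difference, which grows as RNA or labelling is less complete, was 2.51 against 1.44 and 1.37. Both traits were shared by the low bioC set, which was replicate 1 of every cold acclimated, 1 d and 3 d group of the 3 accessions. Te cold acclimated replicate 1 was in it (6.59, with an actin difference of 2.18), as was the array labelled Te 3 d replicate 1 (7.07 and 2.55). Replicate 1 of Col and of Rsch at 1 d were in it too, with actin differences of 1.99 and 1.81 and time scores of 0.01 and 0.03. The score places the arrays labelled Te 1 d and Te 3 d replicate 1 at each other's time. Whether they were exchanged was not tested, and the labels are kept. Below, "without replicate 1" gives the same value from the fit that leaves out the array labelled Te 1 d replicate 1.

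**Figure D1:**
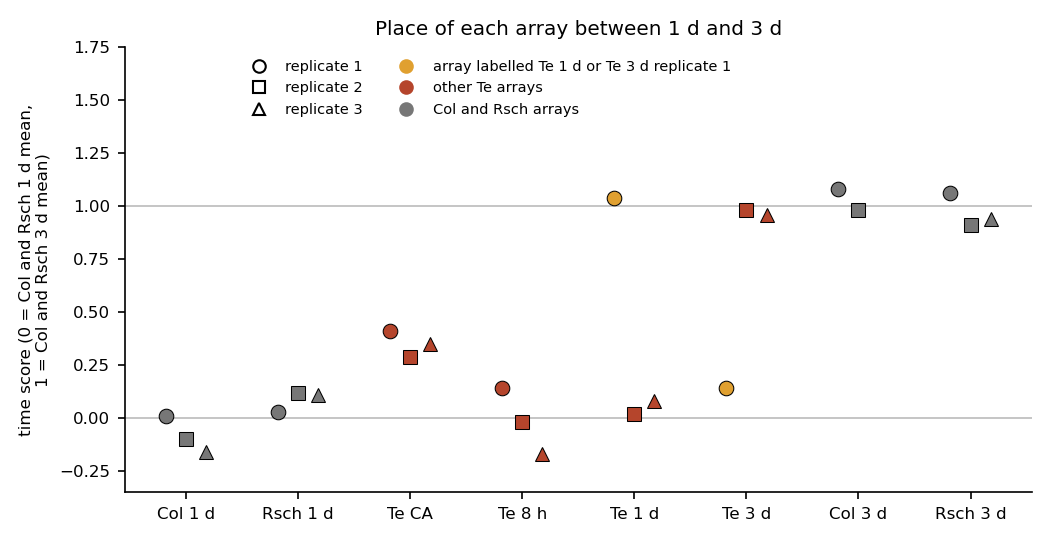
Time score of single arrays (vertical axis, no unit; 0 and 1 are the means of the Col and Rsch arrays at 1 d and 3 d) by group, with replicates by symbol. The array labelled Te 1 d replicate 1 lies at 1.04 and the array labelled Te 3 d replicate 1 at 0.14, each among the arrays of the other time.

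After 1 d at -3 °C the highest increase in Te was that of AT5G62360, a member of the family that inhibits invertases and pectin methylesterases, which rose 81.2-fold. The lowest change was a 6.71-fold fall of AT1G72240. Of 22746 probe sets 793 (3.49%) passed an adjusted p of 0.05, 481 higher (2.11%) and 312 lower (1.37%). Of the higher calls 351 were at least 2-fold. Centring each array on its median gave 566 higher and 228 lower, which moved the higher share from 60.66% to 71.28%. The test called 930 (4.09%) without the array labelled Te 1 d replicate 1, 527 higher (2.32%) and 403 lower (1.77%), of which 585 were also called with it. Blocking on replicate number gave 1552 calls (6.82%), 771 higher (3.39%) and 781 lower (3.43%). Calls numbered 452 without Te cold acclimated replicate 2, 290 without cold acclimated replicate 3, 396 without Te 1 d replicate 2 and 307 without Te 1 d replicate 3. The median change of all probe sets was -0.01 log2. All 3 values at 1 d lay above all 3 cold acclimated values in 2408 probe sets (10.6%) and below them in 2649 (11.6%), the calls included.

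AT5G62360 had log2 levels of 8.34, 5.46 and 5.36 when cold acclimated and 12.08, 13.03 and 13.09 at 1 d. Every 1 d array was far above every cold acclimated array, and replicate 1, the highest when cold acclimated, was the lowest at 1 d. The change was 6.34 ± 0.59 log2 (SE; limma adjusted p = 1.86e-06), and 6.67 without the array labelled replicate 1. AT4G22470, of the lipid transfer protein family, went from 5.46, 5.78 and 4.78 to 11.61, 11.26 and 10.47, a rise of 5.77 ± 0.63 (5.52 without replicate 1). Its groups were apart by more than their spread, with replicate 1 the highest of the 3 at 1 d.

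AT2G38240, also known as JOX4, an oxygenase that inactivates the hormone jasmonate, rose by 5.25 ± 0.65 (adjusted p = 4.29e-05), and by 5.26 without replicate 1. Its levels were 5.91, 6.13 and 5.32 when cold acclimated and 11.03, 11.25 and 10.84 at 1 d, so that the 3 arrays of each group lay close together. AT1G10585, a bHLH transcription factor, rose by 4.54 ± 0.65 from 4.47, 3.93 and 5.24 to 9.42, 8.85 and 9.01 (4.38 without replicate 1). The 3 arrays at 1 d were again alike. AT2G44370, a C1 domain protein, had 4.24, 4.54 and 4.37 when cold acclimated and 9.84, 8.39 and 7.85 at 1 d. The array labelled replicate 1 was the highest there, and the change of 4.31 ± 0.56 was 3.74 without it.

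XTH18, an enzyme that cuts and rejoins the xyloglucan of the wall, rose by 4.18 ± 0.66 (adjusted p = 0.000563, 4.42 without replicate 1), from 5.65, 6.31 and 4.25 to 9.11, 9.69 and 9.95. All 1 d arrays lay well above the widely spread cold acclimated ones. AT3G15450, an aluminium-induced family protein known to rise when sugar runs short, went from 8.64, 8.05 and 7.99 to 11.68, 11.70 and 11.19, a rise of 3.30 ± 0.45 (3.22 without replicate 1). Proline dehydrogenase 2 (AT5G38710), which starts the breakdown of the protectant proline, went from 5.18, 6.37 and 6.09 to 7.53, 9.74 and 9.64. Its rise of 3.09 ± 0.63 was 3.81 without the array labelled replicate 1, the lowest of the 1 d arrays by a wide margin.

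The other highest increases were of AT3G15440 (3.71), AT1G15010 (3.55), the leucine-rich repeat receptor kinase AT1G51820 (3.50), the 2-oxoglutarate oxygenase AT2G44800 (3.29), AT3G43250 (3.21) and the glycosyl hydrolase AT1G32860 (2.96). AT1G15010 stood at 8.48, 10.95 and 10.67 at 1 d against 5.07, 7.82 and 6.56 when cold acclimated. Replicate 1 was the lowest of its group at both times, and the groups came close, 8.48 against 7.82. AT3G43250 read 5.32, 6.86 and 6.77 at 1 d and about 3 log2 on every cold acclimated array (2.98, 3.10 and 3.26). All 14 of these genes were called again without the array labelled replicate 1, and 12 of them with any 1 of the 6 arrays left out. AT1G15010 was not called without cold acclimated replicate 1 or 3 or without Te 1 d replicate 2 or 3 (adjusted p from 0.078 to 0.114). AT3G43250 was not called without cold acclimated replicate 3 (0.0518) or without Te 1 d replicate 2 (0.0717) or 3 (0.0779). With only the 6 arrays compared, AT1G15010 (0.0992) and AT5G38710 (0.0697) were not called.

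The lowest changes were led by AT1G72240, a gene whose role is not named here. It fell by 2.75 ± 0.35 log2 (adjusted p = 5.73e-05), from 8.08, 8.44 and 7.58 to 5.03, 5.46 and 5.38, with the 1 d arrays all far below (-2.62 without replicate 1). AT1G24140, a matrix metalloproteinase, fell from 7.84, 8.95 and 8.88 to 5.71, 5.94 and 6.22, by 2.60 ± 0.55 (-2.48 without replicate 1). The cold acclimated replicate 1 was its lowest control. AT5G39670, an EF-hand protein that binds calcium, fell by 1.89 ± 0.42 from 9.51, 9.16 and 8.75 to 7.66, 6.63 and 7.44 (-2.10 without replicate 1). AT1G72920, a TIR domain protein of the disease resistance type, fell by 1.77 ± 0.35 from 8.66, 8.01 and 7.83 to 6.54, 6.45 and 6.20 (-1.84 without replicate 1). UGT78D1, the flavonol rhamnosyltransferase, fell by 1.43 ± 0.28 (adjusted p = 0.00476) from 7.10, 6.58 and 6.72 to 4.84, 5.34 and 5.95 (-1.16 without replicate 1).

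The other members of the lowest 14 lay between -2.42 and -1.52 log2. They were AT4G23610 (-2.42), AT4G27657 (-2.29), AT1G35210 (-2.19), AT1G13470, AT5G38980 (-1.70), the Per1-like AT5G62130 (-1.65), AT1G14345 (-1.61), the DUF247 protein AT2G36430 (-1.56) and the GNAT acetyltransferase AT1G72030 (-1.52). Of the 14, 3 lost their call without the array labelled replicate 1, AT4G23610 (adjusted p = 0.0849), AT4G27657 (0.0523) and AT1G13470 (0.0567). The calls of 4 of the 14 (AT1G72240, AT1G72920, AT5G62130 and UGT78D1) were made with any 1 of the 6 arrays left out. AT1G13470 was called in none of these 6 fits (adjusted p from 0.0567 to 0.16). AT4G23610, AT4G27657, AT1G35210, AT5G38980 and AT1G14345 were not called in 4 of them (up to 0.137, 0.0787, 0.126, 0.0827 and 0.115) and AT1G72030 in 3 (up to 0.115). AT1G24140 was not called without cold acclimated replicate 3 (0.0507), AT2G36430 without cold acclimated replicate 2 (0.0503) and AT5G39670 without Te 1 d replicate 2 (0.0779). AT4G23610 read 6.32, 6.44 and 7.51 at 1 d and 8.37, 9.56 and 9.60 before. With only the 6 arrays compared, AT4G23610 (0.0538), AT1G14345 (0.0564), AT2G36430 (0.0582) and UGT78D1 (0.0707) were not called. Within the 25 arrays of the larger bioC set, 6 of these 14 were not called, with adjusted p between 0.0534 and 0.0713 (AT4G23610, AT4G27657, AT1G35210, AT1G13470, AT2G36430 and UGT78D1), at changes of -2.61 to -1.01.

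**Figure D2:**
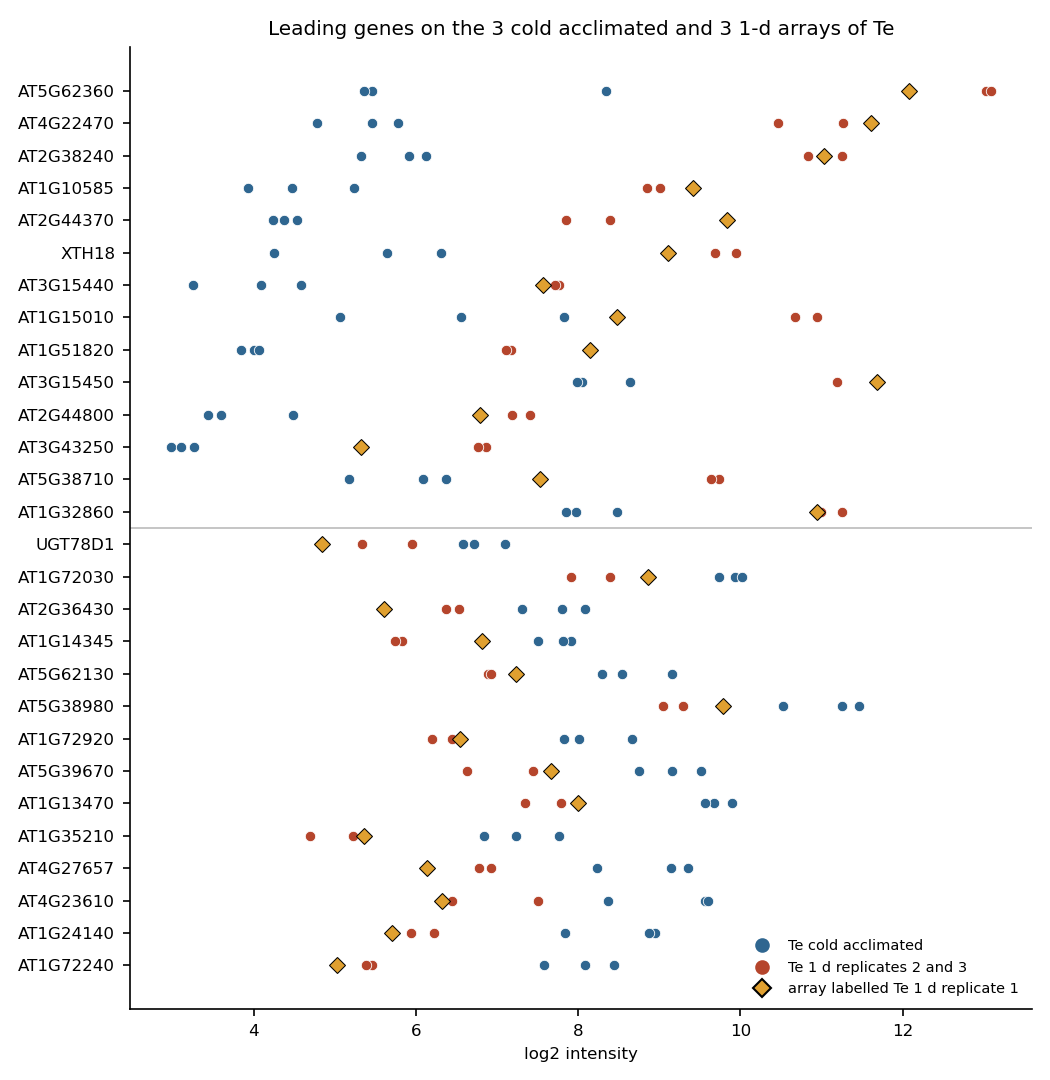
Log2 intensity (horizontal axis) of the 14 genes with the highest and the 14 with the lowest called changes, on the 3 Te cold acclimated arrays (blue), Te 1 d replicates 2 and 3 (red) and the array labelled Te 1 d replicate 1 (orange diamond). The groups do not overlap for any of the 28 genes, by the rule that chose them, and the diamond lies apart from the red points in AT1G15010, AT3G43250 and AT5G38710.

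Gene lists by function are given as counts of genes that have a probe set of their own, beside 1.92% higher and 1.27% lower over all 13356 such genes. Many lists were measured only in part, such as 21 of 224 cytochromes P450. Among cell wall genes, of 9 measured xyloglucan endotransglucosylase/hydrolases 2 rose, XTH18 and XTH19, and the median change of the list was 0.72 log2 (0.40 without replicate 1). XTH19 went from 5.71, 5.09 and 4.54 to 7.66, 7.99 and 7.69, a rise of 2.67 ± 0.49 (2.73 without replicate 1), with the 1 d arrays tightly grouped above. Of 8 cellulose synthases and related enzymes 1 rose, CSLD2, a cellulose synthase-like enzyme, by 1.44 ± 0.37 (adjusted p = 0.0253). CSLD2 read 8.63 on the array labelled replicate 1, just below the highest control at 8.66, and 10.42 and 9.91 on the other 1 d arrays. Its change was 1.95 without that array (adjusted p = 0.0016), and it was not called without Te 1 d replicate 2 (1.06, 0.174) or 3 (0.12), or without cold acclimated replicate 1 (0.0678) or 3 (0.141). None of 18 expansins was called. The loosening-protein relative EXLA3 had the highest change among them, 2.24 ± 0.70 (adjusted p = 0.0741, 0.0499 with the replicate block), with 9.12, 10.38 and 10.27 at 1 d against 8.54, 7.61 and 6.89. Of 26 genes listed as pectin methylesterases, their inhibitors and polygalacturonases 2 were measured, PMEPCRF and PME61, and both lay below 0 (-0.71 and -0.32). Neither was called, and PMEPCRF passed with the replicate block (adjusted p = 0.0883, 0.0295 with the block, 0.279 without replicate 1). The list goes by gene symbol, so AT5G62360, of the inhibitor family and higher by 6.34 log2, is not in it.

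Of 6 measured phenylpropanoid and lignin enzymes 2 rose, and the list had a median of 0.97 log2 (0.91 without replicate 1). HCT, an acyltransferase on the way to lignin, rose by 1.07 ± 0.25 (adjusted p = 0.0149) from 9.11, 9.03 and 9.12 to 9.87, 10.28 and 10.30. Its 3 control arrays were nearly equal, and all 1 d arrays were higher. The change was 1.20 without replicate 1, and in 4 of the 6 fits that leave out 1 array HCT was not called (up to 0.079). The cinnamoyl-CoA reductase CCR2 rose by 2.07 ± 0.58 (adjusted p = 0.0446), and was not called without the array labelled replicate 1 (0.0666) although the change was then 2.14. It was called in none of the 6 fits that leave out 1 array (up to 0.142).

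Of 26 COR, LTI and LEA proteins 7 were measured, of which 1 rose, and the median was 0.25 log2 (0.62 without replicate 1). COR47, a dehydrin, went from 12.65, 12.31 and 12.13 to 13.13, 13.33 and 13.43, a rise of 0.93 ± 0.25 (adjusted p = 0.0309), and 1.02 without replicate 1. It was not called without cold acclimated replicate 2 (0.0933) or 3 (0.157) or without Te 1 d replicate 2 (0.0996) or 3 (0.131). COR15A, which protects the chloroplast membranes during freezing, was near the top of the intensity range in every leaf, at 13.14, 13.15 and 12.99 against 13.04, 13.03 and 12.93, with a change of -0.09 ± 0.10 that was not called. Its relative COR15B had a change of 0.79 ± 0.27 (adjusted p = 0.109), from 10.49, 9.77 and 9.98 to 10.72, 11.24 and 10.65, and passed with the replicate block (0.0431); without replicate 1 the change was 0.86.

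AT4G33980, known as COR28, a cold gene tied to the circadian clock, rose by 2.50 ± 0.69 (adjusted p = 0.0393, 0.0548 without the array labelled replicate 1). It read 8.42, 7.69 and 7.98 when cold acclimated and 10.25, 10.79 and 10.55 at 1 d. It was called in none of the 6 fits that leave out 1 array (up to 0.129). COR27, its relative, read 10.50, 10.42 and 10.59 and then 11.87, 11.57 and 11.41, without overlap. The change of COR27, 1.11 ± 0.37, had an adjusted p of 0.101 (0.0474 with the replicate block), and was 0.98 without replicate 1. CBF1, CBF2 and CBF3 had no probe set of their own here and were not analysed.

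Of 4 measured salicylic acid and immune regulators 2 rose. The receptor kinase EFR, which senses a bacterial elongation factor, rose by 1.72 ± 0.30 (adjusted p = 0.00187), from 4.87, 6.23 and 5.42 to 6.88, 7.55 and 7.24 (1.89 without replicate 1). BIK1, the kinase that relays signals from such receptors, rose by 1.22 ± 0.24 from 8.37, 8.19 and 7.49 to 9.52, 9.21 and 8.98 (1.08 without replicate 1). Both kept their groups apart, and neither was called when only the 6 arrays compared were fitted (0.0726 and 0.0769). That fit also ended the calls of CSLD2 (0.178) and COR47 (0.0531) above. Below, it ended those of GTR1 (0.117), UGT71C5 (0.0564), BGLU15 (0.142), BGLU45 (0.109), ALDH22A1 (0.108) and nad6 (0.158). Of 27 ubiquitin-conjugating enzymes and ligases 1 rose, PUB22, a ligase that dampens immune signals, by 2.74 ± 0.54 from 4.31, 5.35 and 4.47 to 7.62, 7.37 and 7.35 (2.65 without replicate 1, and not called within the larger bioC set, 0.0666). Of 15 IQD and other calcium signalling proteins 1 rose, the calmodulin-binding IQD22, by 2.66 ± 0.46 (2.58 without replicate 1). IQD22 went from 5.81, 6.28 and 6.03 to 8.84, 8.35 and 8.90. IQD24 had -1.44 ± 0.50 (adjusted p = 0.117) and was called lower without replicate 1 (-1.97, 0.0298).

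The array labelled replicate 1 decided the call of the calmodulin-like CML38, a gene known to answer low oxygen and wounding. CML38 read 8.92 on that array and 11.37 and 11.31 on the other 1 d arrays, against 9.58, 9.55 and 8.71 when cold acclimated. The change of 1.25 ± 0.55 was not called (adjusted p = 0.231), and without that array it was 2.06 (adjusted p = 0.0186). Pyruvate decarboxylase PDC2, a fermentation enzyme, had its lowest 1 d value again on that array, 10.77, against 10.26, 10.19 and 10.40 when cold acclimated. Its change was 1.15 ± 0.34 and 1.48 without that array. The adjusted p was 0.063 with the array, 0.0186 without it and 0.0273 with the replicate block.

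Among transporters, 1 of 19 sugar transporters and 1 of 6 glucosinolate genes rose. SWEET2, which moves sugar across the vacuolar membrane, rose by 2.07 ± 0.42 (adjusted p = 0.00582) from 6.12, 6.64 and 6.50 to 8.03, 8.72 and 8.73 (2.30 without replicate 1). The glucosinolate transporter GTR1 rose by 1.78 ± 0.44 from 9.30, 9.61 and 8.96 to 10.01, 11.91 and 11.30. The array labelled replicate 1 lay nearer to the controls of GTR1 than to the other 1 d arrays, and the change without it was 2.31. GTR1 was not called without Te 1 d replicate 2 (1.36, adjusted p = 0.147) or 3 (0.101), or without cold acclimated replicate 1 (0.0517) or 3 (0.112).

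Of 47 UDP-glycosyltransferases 2 rose and 1 fell, 35 lay above 0 and the median was 0.17 log2 (0.13 without replicate 1). UGT85A2 rose by 1.88 ± 0.44 (2.16 without replicate 1) and was not called in 4 of the 6 fits that leave out 1 array (up to 0.0914). UGT71C5, which conjugates abscisic acid, rose by 0.81 ± 0.15 (adjusted p = 0.00353) from 7.89, 7.79 and 8.05 to 8.78, 8.48 and 8.90 (0.78 without replicate 1). UGT76E1 had the highest change of the family, 2.13 ± 0.62, with an adjusted p of 0.053 (0.00172 without the array labelled replicate 1, 0.027 with the replicate block). Of 8 flavonoid and anthocyanin genes 1 fell, UGT78D1, and the median was -0.81 (-0.42 without that array). Of 21 cytochromes P450 none rose and 2 fell, CYP71B28 by 1.39 ± 0.24 (adjusted p = 0.0014) and CYP71B24 by 1.02 ± 0.19 (-1.36 and -0.92 without replicate 1). CYP71B28 read 7.55, 7.06 and 7.52 when cold acclimated and 5.94, 6.15 and 5.88 at 1 d. Of 21 beta-glucosidases 2 rose, BGLU15 (1.81 ± 0.45) and BGLU45 (0.59 ± 0.14), a glucosidase of lignin precursors that lay below 5.32 on all 6 arrays. BGLU15 was not called without the array labelled replicate 1 (adjusted p = 0.104) or without cold acclimated replicate 2 (0.127) or 3 (0.117). BGLU45 was 0.69 without replicate 1 and was not called in 3 of the 6 fits that leave out 1 array (up to 0.139). Of 8 aldehyde dehydrogenases 1 fell, ALDH22A1, by 0.77 ± 0.19 (-0.98 without replicate 1), which was not called in 4 of those 6 fits (up to 0.129).

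Transcripts of photosynthesis lay lower at 1 d in value, and none was called. All 8 measured nuclear photosystem, antenna and electron transport genes had changes below 0, with a median of -0.57 log2 (-0.55 without replicate 1). An unadjusted p under 0.05 was found for 4 of the 8, all lower, against 9.21% of all probe sets lower at that threshold. Their mean level was 10.44, 10.65 and 10.57 when cold acclimated and 9.93, 9.71 and 9.88 at 1 d, so that the groups did not overlap. The same held downward for 11.6% of single probe sets, a share that is no background for a mean of 8 genes. The antenna protein gene LHCB4.2 had the lowest change, -1.67 ± 0.63 (adjusted p = 0.156), with 9.26, 7.96 and 8.47 at 1 d against 9.82, 10.49 and 10.37 (-2.01 without replicate 1). Of the Calvin cycle genes 4 of 4 lay below 0, with a median of -0.69 (-0.76 without replicate 1) and mean levels of 11.39, 11.25 and 11.28 against 10.75, 10.70 and 10.38. PRK, which makes the acceptor of carbon dioxide, had -0.91 ± 0.37 (adjusted p = 0.199).

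Of 9 starch metabolism genes 8 lay below 0, with a median of -0.55 (-0.45 without replicate 1) and no call. QQS, a gene that limits leaf starch, read 9.40, 9.42 and 9.57 when cold acclimated and 8.89, 8.06 and 8.44 at 1 d, and its adjusted p was 0.0656 (0.0362 without the array labelled replicate 1, 0.0351 with the replicate block). The list of branched-chain amino acid breakdown and dark-induced genes holds 26, of which 11 were measured. All 11 lay below 0, none was called and the median was -0.18 (-0.38 without replicate 1). The lowest, BCAT4 (-0.78), is also in the glucosinolate list. This list too goes by gene symbol, so AT3G15450, higher by 3.30 log2 as given above, is not in it. With the replicate block MCCB, of leucine breakdown, was called lower (-0.67, adjusted p = 0.0807, 0.0437 with the block). These photosynthesis, starch and dark list signs held under median centring and, but for 1 gene of the last list, under quantile normalization.

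The organelle genomes differed in the values they gave. Of 69 chloroplast-encoded genes 66 lay below 0, with a median of -0.34 log2 (-0.30 without replicate 1, with 62 below 0), no call, and an unadjusted p under 0.05 in 4, against 16.8% of all probe sets. With median centring 65 of 69 lay below 0, and with quantile normalization 66. Their mean level was 8.80, 8.66 and 9.17 at 1 d, and differed from that of the cold acclimated array of the same number by -0.32, -0.35 and -0.32 log2. The groups overlapped, since 1 d replicate 3 lay above cold acclimated replicate 1 (9.12), while all 3 pairs were lower at 1 d. The same list had a median of 0.27 in Col, with 4 of 69 below 0, and of -0.05 in Rsch, with 40 of 69 below 0. Genes of 1 genome share their copies and transcription units and are not independent, and no gene of the list was called in Te minus the mean of Col and Rsch. Of 15 mitochondrion-encoded genes 2 rose, cox1 of cytochrome oxidase by 1.40 ± 0.27 (adjusted p = 0.00379), from 8.51, 7.81 and 8.20 to 9.72, 9.50 and 9.50 (1.33 without replicate 1), and nad6 of complex I by 0.81 ± 0.22 (0.0403). Of the 6 fits that leave out 1 array, nad6 was called only in the one without replicate 1 (1.01, 0.0141), and had adjusted p up to 0.246 in the others. The median of that list was 0.07 (0.08 without replicate 1).

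No member passed the test among the 6 WRKY, 15 bZIP and 2 ERF factors, the 16 auxin, 7 jasmonate and 2 abscisic acid genes, the 13 glutathione transferases, or the 8 antioxidant enzymes that were measured. The full lists hold 67 WRKY, 50 bZIP and 51 ERF factors and 107 auxin, 53 jasmonate and 72 abscisic acid genes. They hold 48 glutathione transferases and 60 antioxidant enzymes, so most members were not measured and nothing is said of them. The lists go by gene symbol, so JOX4, which the files name AT2G38240 and which rose as given above, is not among the 7 jasmonate genes. WRKY22, of immune signalling, had the highest change of its list, 1.69 ± 0.54 (adjusted p = 0.0824), with 8.21, 8.27 and 8.22 at 1 d against 5.88, 7.04 and 6.73. The defensin PDF1.2 read 6.35, 4.09 and 9.77 at 1 d, its groups overlapped, and its change was -1.42 ± 1.60. With the replicate block the called share of all probe sets rose from 3.49% to 6.82%, and the counts of several lists rose beside it. The count went from 1 to 3 of the cellulose synthases, 1 to 2 of the COR, LTI and LEA proteins and 2 to 3 of the cytochromes P450. It went from 1 to 2 each of the aldehyde dehydrogenases, the sugar transporters and the ubiquitin list, and 3 to 6 of the UDP-glycosyltransferases. It went from 0 to 1 each of the expansins and the pectin, clock, low-oxygen, starch, autophagy and branched-chain lists.

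**Figure D3:**
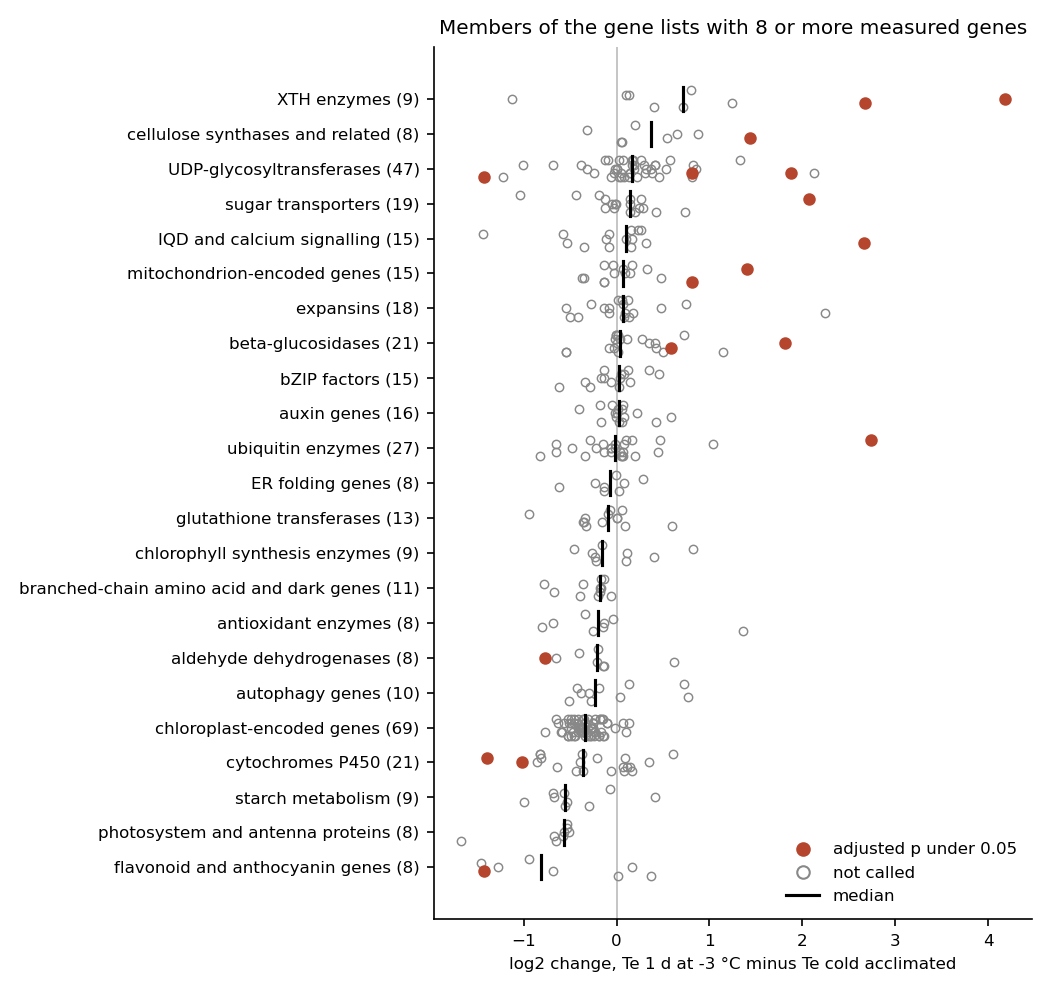
Log2 change in Te at 1 d (horizontal axis) of every measured member of the 23 lists with 8 or more genes, ordered by median (black bar), with called members filled and the number measured in brackets. XTH18, at 4.18, lies farthest from 0, and the photosystem and chloroplast-encoded members lie below 0, all 8 and 66 of 69, with none filled.

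Between 8 h and 1 d fewer Te transcripts changed. At 1 d 36 probe sets were higher (0.158%) and 10 lower (0.044%) than at 8 h, 46 in all (0.202%). Without the array labelled Te 1 d replicate 1 the count was 22 (0.0967%), 20 higher (0.0879%) and 2 lower (0.00879%), and with the replicate block it was 112. The 8 h arrays all lay in the larger bioC set, and within that set 20 were called. Leaving out Te 8 h replicate 2 left 8, and Te 8 h replicate 3 left 26. Leaving out Te 1 d replicate 2 left 30. The 1 d arrays are shared with the comparison against cold acclimated leaves.

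AT1G10585, the bHLH factor above, read 5.79, 4.69 and 7.01 at 8 h and then rose by 3.26 ± 0.65 (adjusted p = 0.0244) to 1 d. At 8 h replicate 2 lay within the cold acclimated range and replicates 1 and 3 above it, while every 1 d array lay above every 8 h array. Without the array labelled replicate 1 the adjusted p was 0.128, and without Te 8 h replicate 2 it was 0.346. AT2G43620, a chitinase family protein, read 6.43, 6.02 and 6.87 at 8 h and 10.78, 8.32 and 8.38 at 1 d, a rise of 2.72 ± 0.43 (adjusted p = 0.00401), and had been at 6.62, 6.57 and 6.14 when cold acclimated. The array labelled replicate 1 was more than 2 log2 above the other 1 d arrays, and the gene was called without it (0.0133). AT2G43620 was not called without Te 8 h replicate 2 (0.0593) or within the larger bioC set (0.0657). Nor was it called with only the Te arrays (0.0858) or only the arrays compared (0.258). HCT was called too, 1.35 ± 0.25 higher at 1 d than at 8 h (adjusted p = 0.0152, 0.0252 without that array), having read 8.70, 8.80 and 8.92 at 8 h.

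The other highest changes from 8 h to 1 d were of AT5G54300 (2.67), the bHLH factor AT2G43140 (2.61), AT1G26290 (2.35) and AT3G18560 (2.05). The array labelled replicate 1 was the highest of the 1 d arrays in all 4, and AT5G54300 and AT2G43140 were not called without it (0.164 and 0.187). AT1G26290 read 4.34, 3.54 and 3.89 at 8 h and 6.97, 5.70 and 6.15 at 1 d. AT3G18560 read 6.50, 6.37 and 6.90 and then 9.49, 7.87 and 8.55. In neither gene did the 2 times overlap. Neither was called without Te 8 h replicate 2 (0.0644 each) or with only the arrays compared (0.131 and 0.184). AT3G18560 was also not called with only the Te arrays (0.0868) or within the larger bioC set (0.0671).

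The lowest changes from 8 h to 1 d were of AT1G18740 (-1.99), AT1G72240 (-1.77), the DNA glycosylase AT1G75230 (-1.76), AT1G72920 (-1.60), AT3G06750 (-1.19) and AT3G07200 (-0.98). None of these 6 was called without the array labelled replicate 1, with adjusted p from 0.0857 for AT1G75230 to 0.237 for AT3G06750. AT1G18740 read 11.29, 11.57 and 11.28 at 8 h and 8.22, 10.11 and 9.83 at 1 d, where that array was more than 1 log2 below the others. AT1G75230 read 9.45, 9.61 and 10.33 at 8 h and 7.59, 8.17 and 8.34 at 1 d, close to its cold acclimated 7.45, 8.19 and 8.16.

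Between 1 d and 3 d in Te no probe set was called as labelled. An unadjusted p under 0.05 was found for 793 (3.49%). No call was made either with the array labelled Te 1 d replicate 1 left out alone, 1 was made without the array labelled Te 3 d replicate 1, and 104 without both, 66 higher and 38 lower at 3 d. Within the larger bioC set, which holds neither of those arrays, 84 were called, and limma's array weights gave 16. CML38 read 11.13 on the array labelled Te 3 d replicate 1 and 10.63 and 10.92 on the other 3 d arrays. At 1 d it read 8.92, 11.37 and 11.31. The array labelled Te 1 d replicate 1 lay below all other arrays of both times. CML38 is therefore no example of the time score.

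**Figure D4:**
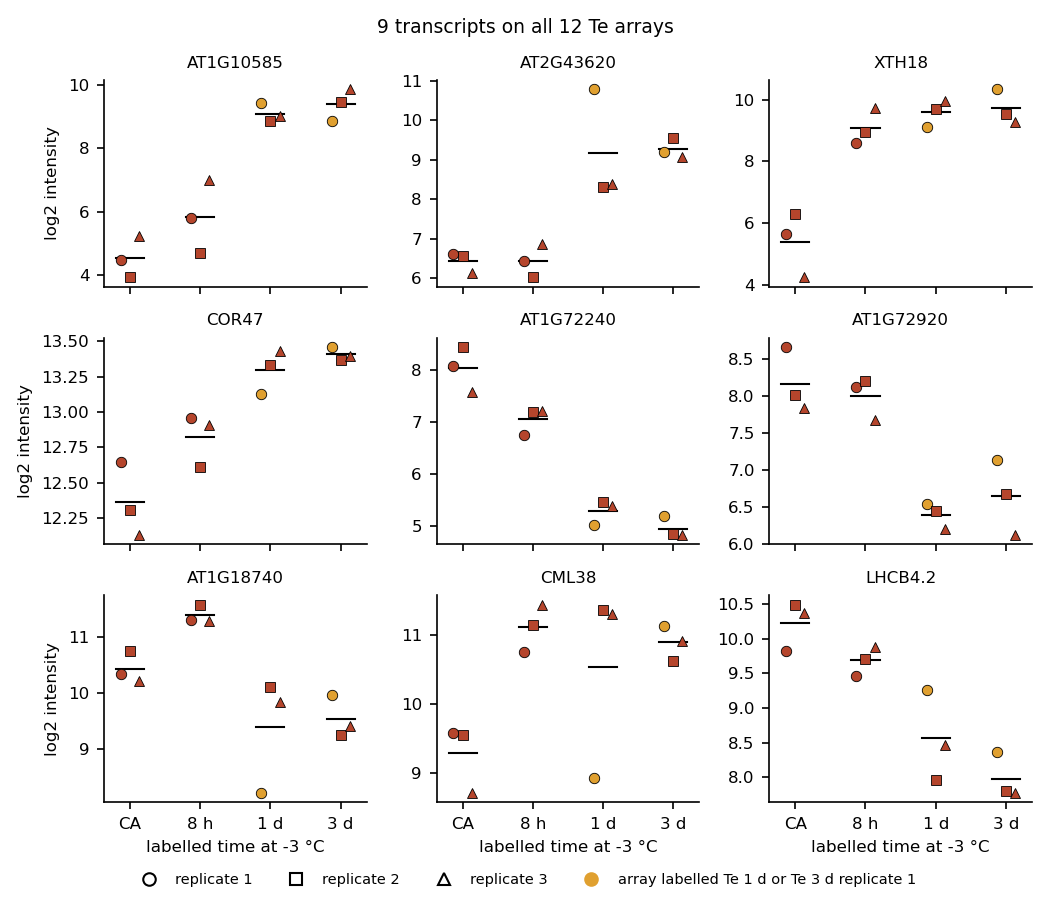
Log2 intensity of 9 transcripts (AT1G10585, AT2G43620, XTH18, COR47, AT1G72240, AT1G72920, AT1G18740, CML38 and LHCB4.2) on the 12 Te arrays by labelled time at -3 °C (CA, cold acclimated), with the group mean as a line and the arrays labelled Te 1 d and Te 3 d replicate 1 in orange. AT2G43620 lies between 6.02 and 6.87 until 8 h and above 8 at 1 d, AT1G10585 reaches 7.01 on 1 array at 8 h, XTH18 lies high from 8 h on, and CML38 at 1 d lies at 8.92 on the orange array and above 11 on the others.

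The Te changes at 1 d were then set beside those of Col and Rsch, whose arrays are none of the Te arrays. Col had 1861 calls at 1 d (8.18%, with 3.71% higher and 4.48% lower) and Rsch 1406 (6.18%, with 3.19% and 2.99%). The median standard error was 0.18 log2 in each accession. The shared estimate of the spread and the 3 arrays per group fix this equality, so it does not measure the spread of Te itself. Of the 481 probe sets higher in Te 343 (71.3%) were also called higher in Rsch and 311 (64.7%) in Col, which are 47.3% and 36.9% of the higher calls of those accessions. Of the 312 lower in Te 189 (60.6%) were also lower in Rsch and 196 (62.8%) in Col, or 27.8% and 19.3% of theirs. In both other accessions 274 of the higher and 153 of the lower calls were made, and in neither 101 and 80. Leaving out the array labelled Te 1 d replicate 1, 294 of 527 higher and 185 of 403 lower calls were shared with both.

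Whether the change at 1 d differed between accessions was tested directly, as the change in Te minus the mean change in Col and Rsch. For 2 probe sets (0.00879%), both lower in Te, the difference was called, against 607 (2.67%) at an unadjusted p under 0.05. AT1G57850, a TIR domain gene, read 3.58, 3.76 and 3.54 when cold acclimated and 3.72, 4.03 and 4.29 at 1 d in Te, below 5.32 on every Te array. Its mean went from 3.92 to 6.02 in Col, it rose in Rsch by 1.81 ± 0.21, and the difference was -1.57 ± 0.26 (adjusted p = 0.0334). Without the array labelled Te 1 d replicate 1 it was not called (0.225), and 1 probe set was (0.0044%). It was also not called without Te 1 d replicate 2 (0.127) or without any 1 of the cold acclimated replicates (0.0616 to 0.192). An unnamed probe set was the other, at 4.47, 4.66 and 4.53 and then 4.42, 4.42 and 4.33 in Te, with a rise of 2.37 ± 0.20 in Col and 0.74 ± 0.20 in Rsch and a difference of -1.72 ± 0.25 (0.00725). Against Col alone 5 probe sets were called (0.022%), 1 higher (0.0044%) and 4 lower (0.0176%), and against Rsch alone none, with 810 and 360 at an unadjusted p under 0.05.

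The 28 genes with the highest and lowest Te changes had the same sign in Col and in Rsch for 27, and 22 were called in Col and 23 in Rsch. The exception was AT1G72920, with 0.08 ± 0.35 in Rsch against -1.77 in Te and -2.41 in Col. For 16 of the 28 the change was larger in Te than in both others, which their choice by size in Te favours. AT1G10585 had 4.54 in Te, 2.17 ± 0.65 in Col and 2.25 ± 0.65 in Rsch, a difference of 2.33 ± 0.79 that was not called. AT2G43140 had 2.60 ± 0.53 in Te, 0.48 in Col and 0.41 in Rsch, neither called, and its difference of 2.16 ± 0.65 was not called either. The smallest adjusted p of a Te difference among the 28 was 0.795 against Col and 1 against the mean of both.

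**Figure D5:**
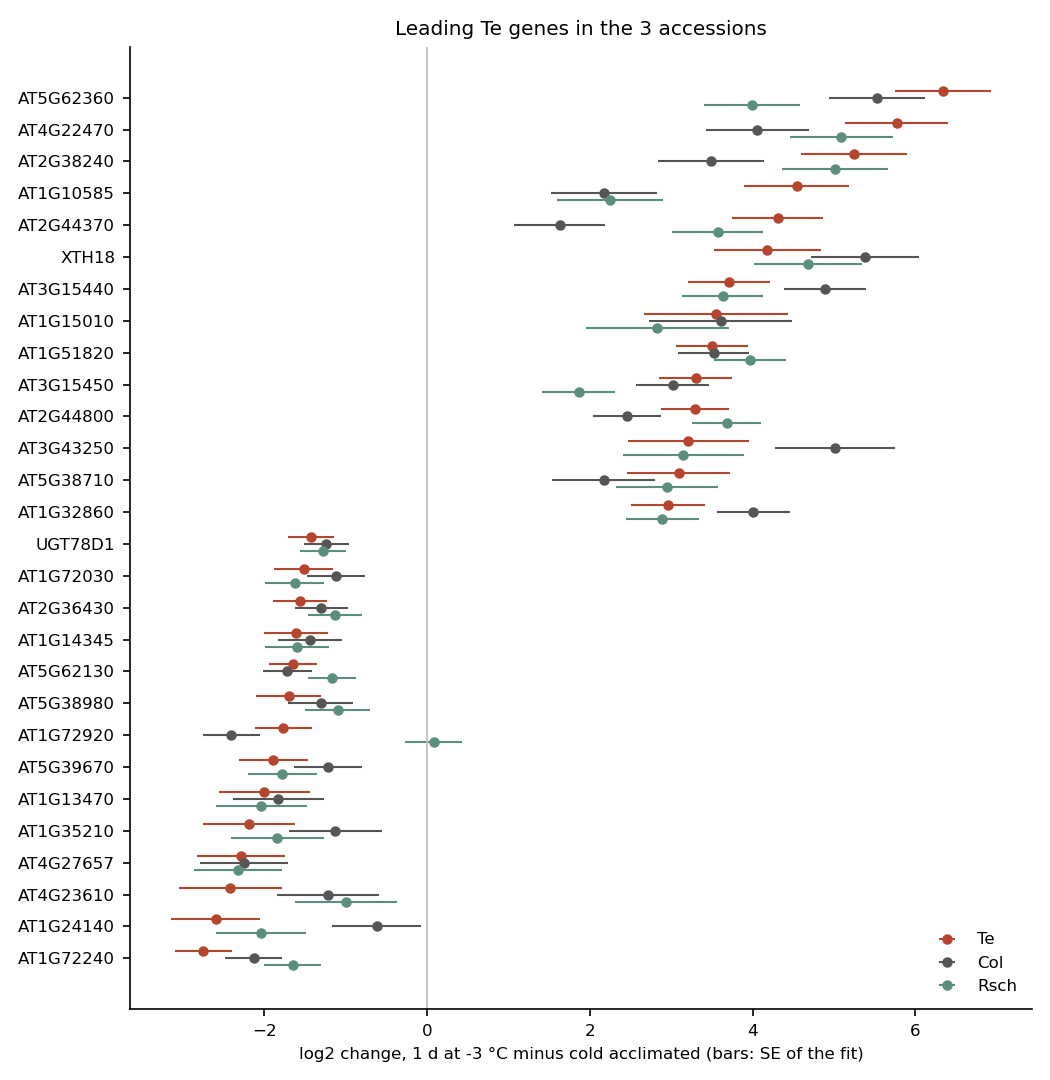
Log2 change at 1 d against cold acclimated leaves (horizontal axis; bars, standard error of the fit) of the 28 genes with the highest and lowest changes in Te, for Te (red), Col (grey) and Rsch (green). All but AT1G72920 in Rsch (0.08) keep the sign of Te, and AT1G10585 lies at 4.54 in Te against 2.17 in Col and 2.25 in Rsch.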

How the data were processed

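The authors summarised the arrays with RMA, per the submitters' processing notes, and the sources used here do not give its version. The deposited intensities were read as log2 because of the span of the numbers. Of 22810 probe sets 64 controls were left out and 22746 tested without a filter. Arrays were grouped by title. For the third cold acclimated Te replicate another label gives the number 2, and the title was followed. Names came from the platform annotation, updated through a RefSeq table (TAIR10.1, names only): 13513 probe sets had 1 gene (13436 matched, 77 kept the platform's name, 13356 genes), 503 had several and 8730 were unnamed here.

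With limma 3.58.1 in R 4.3.3 (lmFit, contrasts, eBayes), 12 group means were estimated from the 34 arrays, which share 1 estimate of the spread (22 residual degrees of freedom). Calls are two-sided Benjamini-Hochberg adjusted p under 0.05 over all probe sets. Errors are moderated standard errors. The script was tested on simulated data. Python 3.11.15, pandas 2.3.3 and matplotlib 3.10.9 made the tables and plots.

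The genes, the 61 lists and the tests were chosen with earlier results of these data known. Named genes are the 14 highest and 14 lowest called changes of genes whose groups do not overlap, the 6 highest and 6 lowest in each other contrast, up to 4 called members of each list (or the largest change) and the COR and CBF genes. A few other values (such as UGT76E1) were chosen after they were seen. List patterns were corrected after the symbols were seen (a cinnamoyl-CoA reductase also called CCR2 was taken out of the clock and RNA-binding lists). Of the 61 lists 53 had a measured gene, with the brightest probe set used per gene.

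Same-numbered arrays of Te cold acclimated and 1 d deviated together (r = 0.33, 0.35 and 0.26 over probe sets), as did those of 8 h and 1 d (0.38, 0.26 and 0.44). The main fit has no block, so its calls, errors and adjusted p ignore this pairing. The fit with the replicate number as a block is given as an alternative. Same-numbered arrays of 1 d and 3 d did not deviate together (-0.24, -0.10 and 0.01). Promoter motifs and sequences were not analysed here. The number of arrays limits the precision.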

Additional observations from a re-analysis of the deposited data

Results flagged for a closer look

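Differences between accessions in the change at 1 d passed the test in few probe sets. In Te minus the mean of Col and Rsch they were AT1G57850 (-1.57 ± 0.26, adjusted p = 0.0334) and an unnamed probe set (-1.72 ± 0.25, 0.00725). In Te minus Col they were the same unnamed probe set (-2.54 ± 0.29, 9.04e-05), AT1G57850 (-1.72 ± 0.30, 0.0311), AT2G34910 (-1.28 ± 0.19, 0.00527), AT1G28375 (-0.94 ± 0.15, 0.0106) and AT3G47250 (1.02 ± 0.17, 0.0114). Without the array labelled Te 1 d replicate 1 AT1G57850 was not called against Col (0.167), and the other 4 were.

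None of the 5 was called in Te itself, where the changes ran from -0.17 to 0.38 log2. The mean Te level at 1 d was 4.01 for AT1G57850, 4.39 for the unnamed probe set, 3.82 for AT2G34910, 3.98 for AT1G28375 and 3.35 for AT3G47250, below the 40th percentile of all values (5.32) in each case. AT3G47250, a DUF247 protein, stood at 9.67 in cold acclimated Col and 3.21 in cold acclimated Te, and fell by 0.88 ± 0.12 in Col.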

How the results depend on the processing

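Against cold acclimated leaves the 793 calls became 1676 with array weights, 1898 with accession and replicate as a random block and 347 with only the arrays compared. Leaving out 1 array gave 290 to 930. With the replicate block, as a pairing, they were 1552. Against 8 h the 46 calls became 72 without dim probe sets, 107 with array weights, 112 with the replicate block, 229 with the random block, 3 with only the arrays compared, 80 with the bioC set as a block, 20 in the larger set alone, 22 without the array labelled Te 1 d replicate 1, and 26 without it and the array labelled Te 3 d replicate 1; 1 array left out gave 8 to 53. For 3 d against 1 d the 0 calls became 16 with array weights, 84 in the larger set and 104 without both doubted arrays, with 0 to 1 when 1 array was left out, and stayed at 0 with the replicate block. For Te minus the mean of Col and Rsch the 2 calls became 1 with quantile normalization, 0 without _s_at and _x_at probe sets, 0 with only the arrays compared and 0 without both doubted arrays, with 0 to 2 when 1 array was left out, and 2 with the replicate block. No named value changed sign with its call. Among the results for named genes the replicate block turned 6 into calls and ended none. Fitting only the arrays compared turned 2 into calls and ended 31. The causes were not tested. The comparisons against each single accession were run with and without the array labelled Te 1 d replicate 1 only. Promoter motifs were not run. Dim probe sets limit what the arrays can show, with 13 higher and 27 lower calls below 5.32 on all 6 arrays.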

Other observations

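The array labelled Te 1 d replicate 1 differed by at least 1 log2 from the mean of the other 1 d arrays in 1215 probe sets (5.34%), 612 higher and 603 lower. The same count was 418 for Te 1 d replicate 2 and 368 for replicate 3, and 781, 240 and 339 for the cold acclimated replicates 1, 2 and 3. Among the probe sets called higher at 1 d it was the lowest of the 3 arrays in 267 and the highest in 150, and among those called lower it was the highest in 169 and the lowest in 76. Its difference from cold acclimated replicate 1, of the same low bioC set, had the direction of the call in 479 of 481 higher and 305 of 312 lower probe sets. Both arrays took part in making those calls. The groups did not overlap in 472 of the higher and 302 of the lower calls, which fixes the direction there. The count is therefore no separate support for the array.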
